A study of Caenorhabditis elegans with 2 samples.

Results

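Candidate regions at nuclear transfer RNA (tRNA) genes were drawn from a genome-wide map of the chromatin recovered with UNC-130, a transcription factor of the forkhead family, in Caenorhabditis elegans. A region was a member when its summit, the point of strongest signal, lay within 200 bp of 1 of the 612 nuclear genes that the WBcel235 annotation classes as tRNA. The rule took 533 of the 22082 nuclear regions in the list pooled over replicates, which holds 22106 regions with those of the mitochondrial genome. It used position only, so the signal of the members was free to be high or low. The same rule took 509 of 21622 regions in the list of replicate 1 and 480 of 20625 in that of replicate 2.

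The data come from chromatin immunoprecipitation followed by sequencing (ChIP-seq) with an antibody against green fluorescent protein (GFP), on sonicated chromatin of whole young adult hermaphrodites. Worms were collected 56 hours after synchronization by bleaching and starvation at the first larval stage. The strain, AGK541, carried armSi1, a transgene on chromosome II in which the mex-5 promoter, active in the germline, drives UNC-130 fused to GFP ahead of the tbb-2 3′ UTR. The cb-unc-119(+) marker lies in the same insertion, and all worms also carried the unc-119(ed3) mutation on III and the deficiency niDf199 on IV. A label note gives the tag as GFP-FLAG at the C terminus, and the antibody field names unc-130 where the description names GFP. The 2 biological replicates form the only group, and nothing else was compared. Worms without the tag and the input control were not analysed here, so signal at tRNA genes cannot be told apart from signal that a ChIP without the tagged factor would give there. Whole worms were used, so strong binding in few nuclei and weak binding in many cannot be told apart either.

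tRNA genes are short and are transcribed by RNA polymerase III, not by the polymerase that makes messenger RNA. Their promoter lies inside the transcribed sequence, as an A box near the start and a B box near the end, and the factor TFIIIC recognises both. A run of T on the coding strand just past the gene ends transcription. Forkhead proteins such as UNC-130 are known as regulators of protein-coding genes and bind strings related to GTAAACA.

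The ends of a few tRNA genes are shown here because they hold the B box and the terminator, the parts that most tRNA genes share. Each line gives 30 bases, 5′ to 3′ on the strand of the gene, from the RefSeq WBcel235 genome, which is the same assembly as the ce11 build of the deposited lists. Capitals mark the B box in the looser form GTTCNANNC at the start and the first run of 4 or more T after it, which for Y38E10A.t1 is not reached within 30 bases. The first 5 belong to 5 of the 6 genes with the strongest regions, at chrX:8836164-8836193 (+ strand), chrX:9743640-9743669 (+ strand), chrX:13307086-13307115 (+ strand), chrII:12678365-12678394 (+ strand) and chrX:5801202-5801231 (- strand).
C28G1.t1 (Glu): GTTCGATTCccggcatgggaagtttcTTTT
F15G9.t1 (Ala): GTTCGATTCcccatacctccagtaaTTTTT
R04D3.t2 (Val): GTTCGAACCcggctaggacctacgTTTTTT
Y38E10A.t1 (Ala): GTTCGATTCcccatacctccaagtaatctt
F46G11.t2 (Pro): GTTCAATCCccggttcggcccatttcTTTT
The next pair comes from lysine tRNA genes of identical sequence, at chrIV:12594792-12594821 (+ strand) and chrX:15241346-15241375 (- strand). The first had a region of signal 75.4 and the second a region of 24.8, each with its summit inside the gene and no other tRNA gene in reach.
K08E7.t1 (Lys): GTTCGAGCCccgcattgggcttatcTTTTT
F39B1.t2 (Lys): GTTCGAGCCccgcattgggcttatcaTTTT
The last pair is a glutamine gene of the family without an optimal peak, at chrX:9091548-9091577 (- strand), and the selenocysteine gene, at chrIV:658246-658275 (+ strand).
H08J11.t3 (Gln): GTTCAAATCtcggtggaacctatgcTTTTT
K11H12.t1 (Sec): GTTCGACTCcacctttcgggtgTTTTagca

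Most nuclear tRNA genes had a candidate region, and a minority had a final peak. Of the 612 genes, 507 (82.8%, 95% Wilson interval 79.7 to 85.6) had a region with its summit within 200 bp. Of these, 164 genes (26.8% of the 612, 23.4 to 30.4) had a region in the authors' optimal list, and 105 genes had no region. The optimal list is the final peak list of the deposited data, with 1168 entries whose pooled signal was 53.5 or more. Of the 533 members, 149 were optimal (28.0%, 24.3 to 31.9), against 5.19% of all nuclear regions and 4.62% of the 21549 nuclear regions away from tRNA genes. Intervals cover the counting of genes or regions, which are not replicates of a condition. Since the lists hold no read counts, the depth of each replicate is unknown.

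Signal is the authors' own value for each region, on a scale not given in the sources used here, and it ranks regions within 1 list. The median signal of the members was 38.2 (quartiles 24.7 and 55.4), against 16.6 (13.6 and 22.4) for the other nuclear regions. In all, 479 members (89.9%) lay above the median of all nuclear regions, and the median member stood at percentile 90.6. The very highest values lay elsewhere: the strongest member ranked 116 of 22082, below other regions of up to 390. Among optimal peaks the order of the medians was the other way round, with 66.4 (59.4 to 77.9) for the 149 members and 76.9 (62.7 to 102) for the 996 others. Among the 584 optimal peaks of highest signal were 45 members, 8.44% of the 533, against 2.55% of all nuclear regions.

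Genes for other short RNAs give a scale for these shares. Of 346 genes for snoRNAs, which guide the modification of other RNAs, 152 (43.9%) had a region, and 71 of their 175 regions (40.6%) were optimal, with a median signal of 39.4. Of 129 genes for snRNAs, the RNA parts of the spliceosome, 80 (62.0%) had a region, with a median of 33.6 and 28 of 106 optimal. Regions at genes for miRNAs, which repress messenger RNAs, had a median of 22.2, and those at piRNA genes, which make small RNAs of the germline, had a median of 14.7. Of the members, 0 lay within reach of a snoRNA gene, 1 of an snRNA gene, 1 of a miRNA gene and 11 of a piRNA gene. The overlap was small. The members' optimal share of 28.0% lay close to the 26.4% of snRNA regions, above the 11.3% of miRNA regions and below the 40.6% of snoRNA regions. The 20 annotated rRNA genes had 0 regions.

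**Figure D1:**
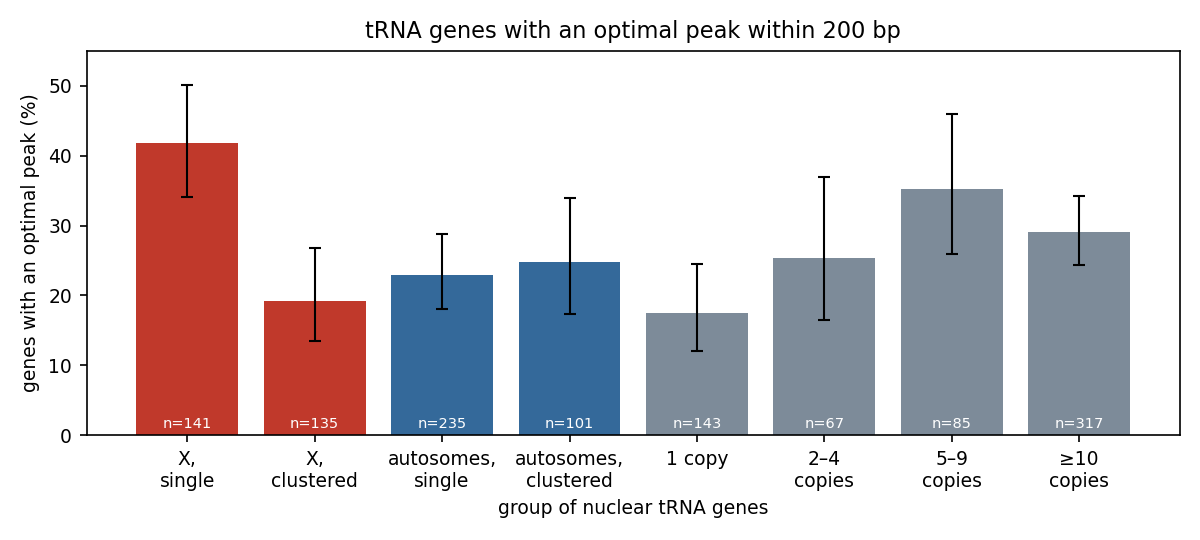
Percent of nuclear tRNA genes with an optimal peak within 200 bp (y axis), by group of genes (x axis), with 95% Wilson intervals as error bars. Single genes on X stand at 41.8%, clustered genes on X at 19.3%, and genes of unique sequence at 17.5%.

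The strongest member lay at C28G1.t1, a glutamate tRNA gene, at chrX:8836054-8836196, with a pooled signal of 128, and 84.4 and 42.4 in replicates 1 and 2. The next, at the alanine gene F15G9.t1 (chrX:9743597-9743704), had 125 pooled, 63.0 in replicate 1 and 63.1 in replicate 2, and also reaches its neighbour F15G9.t2. These were the only 2 members narrower than 430 bp, the width of the other 531. R04D3.t2, a valine gene (chrX:13306832-13307261), had 124 pooled, 58.9 in replicate 1 and 64.6 in replicate 2. The alanine gene Y38E10A.t1 (chrII:12678076-12678505) had 122, with 70.2 and 54.8. M01E5.t1, a lysine gene (chrI:13297571-13298000), had 122, with 55.1 and 71.5. These first 5 ranked within the first 293 regions of replicate 1 and the first 403 of replicate 2; the scales of the replicates are not stated to be comparable, so their values are set side by side. F46G11.t2, a proline gene whose region also reaches its neighbour F46G11.t1 (chrX:5801091-5801520), had 109, with 58.6 and 53.3. W09G10.t3, a threonine gene whose region also reaches the lysine gene W09G10.t2 (chrII:3518926-3519355), had 107, with 64.6 and 41.9.

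The other 8 of the first 15 had pooled signals of 92.3 to 100.1, with 45.2 to 61.4 in replicate 1 and 29.2 to 48.2 in replicate 2. They lay at the lysine genes K04C2.t3, T23F1.t1 and E03E2.t3, the isoleucine genes C42D8.t1 and F57F5.t1, the arginine gene F56F3.t1, the leucine gene C04A11.t1 and the glycine gene T03G6.t1. The region of T23F1.t1 also reaches the proline gene T23F1.t2. Of the 15, 8 were on X and 7 on autosomes, and 4 belonged to lysine genes. All 15 ranked within the first 497 regions of replicate 1 and within the first 954 of replicate 2. The 5 optimal members of lowest signal, at C16B8.t2 (Pro), T02G6.t1 (Ser), F25F6.t2 (Thr), ZK994.t2 (Lys) and H35N09.t2 (Gln), had 53.6 to 53.9, and the strongest member outside the optimal list had 53.5. All optimal members thus had a higher signal than all other members. Among members the optimal list followed a cut in signal, so near-equal values on its 2 sides follow from that cut. The optimal share and the signal of members are therefore not independent measures.

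Most summits lay on a tRNA gene or close beside it, with 471 of 533 within 100 bp. Of the 533 summits, 229 (43.0%) lay inside the gene, 151 (28.3%) upstream and 153 (28.7%) downstream. The median summit lay 37 bp into the gene from its 5′ end, with quartiles at 7 bp upstream (-7) and 87 bp downstream of that end. In the lists of replicates 1 and 2 the median offset was 35 bp in both. The rule reaches 200 bp on each side of a gene, so evenly scattered summits would also have a median near its middle. Equal shares upstream and downstream would follow from it too. Optimal members lay closer to the gene than members as a whole. Of the 149, 80 had their summit inside the gene (53.7%) and the farthest was 65 bp away. Of members with the summit inside the gene 34.9% were optimal (29.1 to 41.3), of those upstream 24.5% (18.3 to 31.9) and of those downstream 20.9% (15.2 to 28.0). The interval for summits inside overlaps that for summits upstream.

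**Figure D2:**
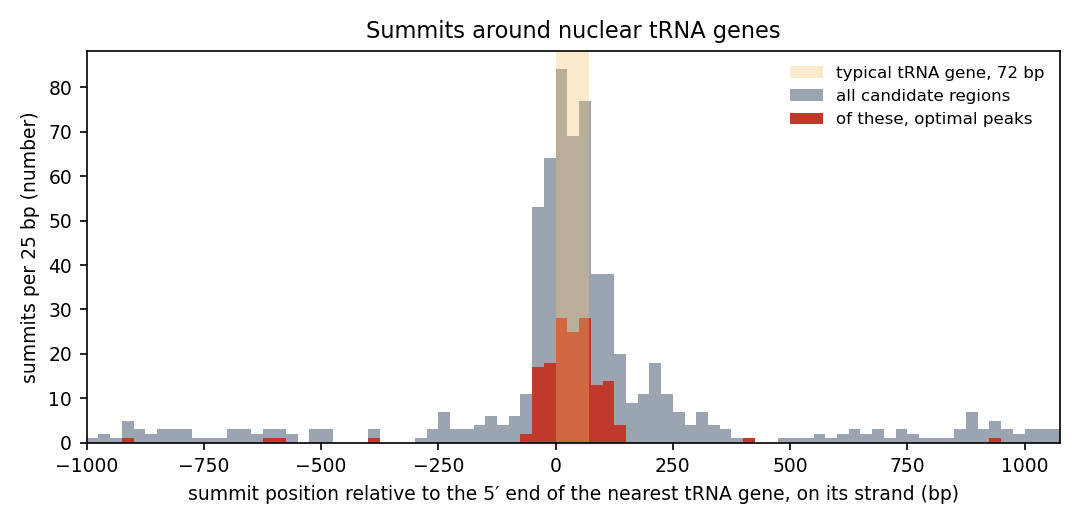
Number of pooled regions (y axis) by the distance of the summit from the 5′ end of the nearest tRNA gene in bp, along the strand of the gene (x axis). Optimal peaks are set apart from the other regions; the optimal members fall between 57 bp upstream (-57) and 135 bp downstream of the 5′ end, and the few optimal peaks farther out are not members.

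Within 100 bp of a tRNA gene lay 471 regions, with a median signal of 41.0 and 149 optimal. From 101 to 200 bp there were 62 regions, with a median of 18.4, and 0 were optimal. From 201 to 300 bp there were 32, with a median of 17.3 and 0 optimal. The optimal members therefore ended well short of the distance used to choose members. The members just inside it lay at ZC412.t2 (Cys; 200 bp, signal 17.9), Y39G10AL.t1 (Gly; 200 bp, 13.0) and rte-4 (Glu; 195 bp, 27.2). The regions just outside lay 207 bp from C03A3.t1 (Arg; 12.2), 217 bp from Y54G2A.t2 (Asp; 18.2) and 218 bp from K04C2.t3 (Lys; 17.2). These 6 lay below the median of the members, and 0 of them were optimal.

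Members were optimal about as often away from protein-coding promoters as in them. Of the 131 members in a promoter window, from 1000 bp before to 200 bp after the start of a protein-coding transcript, 26.7% were optimal, with a median signal of 38.5. Of the 402 outside such windows 28.4% were optimal, with a median of 38.1. For regions away from tRNA genes the shares were 8.92% in promoter windows and 2.01% outside. Members within protein-coding gene bodies were optimal in 26.1% of 257 and the others in 29.7% of 276.

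The X chromosome holds the largest number of tRNA genes, 276 of 612 (45.1%), or 15.6 per Mb against 4.07 per Mb on the autosomes. X also held the fewest optimal peaks, 94, and 77 of them were at tRNA genes (81.9%, 72.9 to 88.4). On the autosomes 72 of 1051 optimal peaks were members (6.85%, 5.48 to 8.54). Among the best 1168 regions of replicate 1 the shares were 68 of 83 on X (81.9%) and 74 of 1062 on autosomes (6.97%). Among those of replicate 2 they were 65 of 78 on X (83.3%) and 56 of 1068 on autosomes (5.24%). Both replicates thus had mostly tRNA genes among their strongest X regions, and few among their strongest autosomal ones.

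The members themselves did not stand out in the same way between X and autosomes. On X 77 of 245 members were optimal (31.4%, 25.9 to 37.5) and on autosomes 72 of 288 (25%, 20.4 to 30.3), and the median signals were 37.2 and 38.5. The single autosomes ranged from 22.6% optimal on IV (14 of 62) to 30.4% on I (17 of 56). What differed was the rest of the chromosome: away from tRNA genes 17 of 2381 X regions were optimal (0.714%), against 5.11% of autosomal regions, with medians of 15.02 and 16.8. The high share of tRNA genes among X peaks therefore goes together with few other peaks on X and many tRNA genes there.

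**Figure D3:**
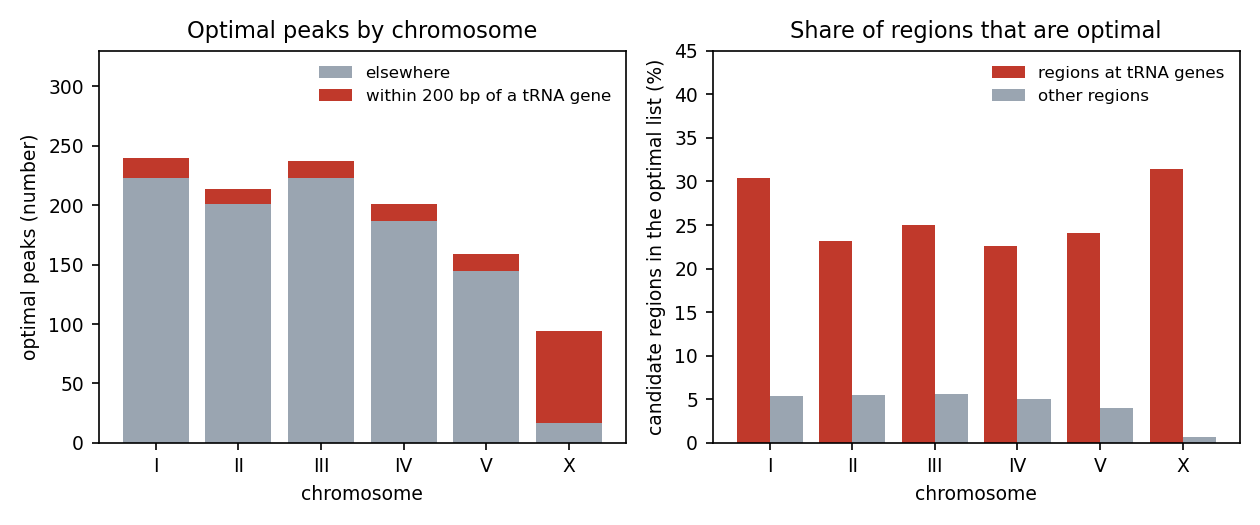
Optimal peaks by chromosome (x axis, I to V and X), split into peaks at tRNA genes and other peaks (y axis, number of peaks). X has 77 peaks at tRNA genes and 17 others, while each autosome has 13 to 17 at tRNA genes and 145 to 223 others.

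Genes were called clustered where another tRNA gene lay within 1000 bp. Of 236 clustered genes 51 had an optimal peak (21.6%, 16.8 to 27.3), against 113 of 376 single genes (30.1%, 25.6 to 34.9). The gap lay on X, where 59 of 141 single genes had an optimal peak (41.8%, 34.0 to 50.1) and 26 of 135 clustered genes did (19.3%, 13.5 to 26.7). On autosomes 54 of 235 single genes (23.0%, 18.1 to 28.8) and 25 of 101 clustered genes (24.8%, 17.4 to 34.0) had an optimal peak. With the best regions of replicate 1 the shares on X were 35.5% of single and 19.3% of clustered genes, and with those of replicate 2 they were 33.3% and 20.0%. With clusters defined by gaps of up to 500 bp the shares over all chromosomes were 22.9% of clustered and 28.3% of single genes, and with gaps of up to 5000 bp they were 25.2% and 28.6%, a smaller gap with overlapping intervals. Among the 584 strongest optimal peaks the order over all chromosomes was the other way round, with 9.32% of clustered and 8.24% of single genes.

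Counted per cluster instead of per gene, clusters had an optimal peak in 34 of 100 cases (34%, 25.5 to 43.7), close to the 30.1% of single genes. On X the share was 18 of 54 clusters (33.3%) and on autosomes 16 of 46 (34.8%). By size, 24 of 78 pairs, 8 of 14 clusters of 3 and 2 of 4 clusters of 4 had an optimal peak, and 0 of the 4 larger ones did. Genes in clusters of 4 or more had an optimal peak in 3 of 38 cases (7.89%, 2.72 to 20.8). These 3 were Y65A5A.t1 and Y65A5A.t4 on IV and R11.t1 on X, which were named after their values were seen.

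All 4 of the largest clusters lay on X and had weak to middling regions. The 6 genes F22F1.t2 to F22F1.t7 (chrX:8154445-8156707), for serine, aspartate, methionine and isoleucine, had regions at 5 genes, with signals of 24.7 to 40.4. The 6 histidine genes F28H6.t2 to F28H6.t7 (chrX:14135045-14137010) had regions at 4, with 20.6 to 29.8. The 5 arginine and cysteine genes of K01A12 (chrX:8623603-8624532) had regions at 3, with 15.9 to 51.9. The 5 glutamine genes of H08J11 (chrX:9090627-9091628) had regions at 4, with 24.1 to 51.7. At these clusters 0 genes had an optimal peak. A region of 430 bp can cover more than 1 gene of a cluster, and 54 members had 2 tRNA genes in reach.

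Many tRNA genes are exact copies of each other. The 612 genes had 200 distinct sequences, and 57 families of 2 or more identical genes held 469 of them. Of the 143 genes of unique sequence 94 had a region (65.7%, 57.6 to 73.0) and 25 an optimal peak (17.5%, 12.1 to 24.5). Of the 469 genes with copies 88.1% had a region (84.8 to 90.7) and 29.6% an optimal peak (25.7 to 33.9). By size of family the optimal shares were 25.4% for 2 to 4 copies, 35.3% for 5 to 9 and 29.0% for 10 or more. Genes of unique sequence made up 46.7% of the 105 genes without a region and 15.2% of the 164 with an optimal peak.

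The copies also bore on the order of X and autosomes. Among genes with copies 34.7% on X (28.7 to 41.2) and 25.2% on autosomes (20.2 to 30.9) had an optimal peak. Among genes of unique sequence the order was the other way round, with 9 of 57 on X (15.8%, 8.54 to 27.4) and 16 of 86 on autosomes (18.6%, 11.8 to 28.1). How reads shared by identical copies were placed is not given in the sources used here. Their part in the result was not tested, and a value at a single copy is uncertain for that reason.

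Identical genes did not have identical regions, though the ratios below are not given for genes of unlike sequence. The ratios are therefore no trait of identical copies. In the 20 families of 10 or more copies the highest signal was 4.65 times the lowest at the median, with a range of 2.10 to 7.76 times. These values take any region within 200 bp, which may be shared with a neighbouring gene or lie beside the gene. Over the 113 regions with the summit inside the gene and no other tRNA gene in reach, a choice added after the data were seen, the ratio was 2.53 at the median, from 1.03 to 7.31, with 2 to 10 regions a family. The largest family, 29 glycine genes, had regions at 25 and optimal peaks at 6, from 12.1 at Y51H4A.t5 to 84.1 at T04D3.t3 (median 38.5). The 25 lysine genes of the next had regions at 22 and optimal peaks at 10, from 15.8 at C17D12.t1 to 122 at M01E5.t1 (median 48.6). The 24 proline genes of the next had regions at 23 and optimal peaks at 7, from 19.7 at Y7A5A.t3 to 109 at F46G11.t1 (median 33.4). Some of these end values belong to regions off the gene or shared: the summit of the 12.1 region lay 153 bp from Y51H4A.t5, and the 109 region reaches 2 proline genes of this family. Over regions inside the gene and not shared, the 3 families ran from 37.2 to 84.1, from 24.8 to 90.5 and from 25.96 to 77.9. The 25.96 was the region of F46G11.t1 itself, since the 109 region was nearest to its neighbour F46G11.t2. F46G11.t1 was thus the lowest among the 6 regions of the proline family that lay inside the gene and were not shared.

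Optimal peaks occurred in 19 of the 20 large families, at 10% to 54.5% of the genes. The exception was a family of 15 glutamine genes, the one of H08J11.t3 above, with regions at 10, optimal peaks at 0 and signals of 14.0 to 51.7. Among the best regions of replicate 1 this family had 1 gene and among those of replicate 2 it had 3. The highest shares belonged to a family of 11 glycine genes with 6 optimal (54.5%) and to 15 alanine genes with 8 (53.3%).

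Every standard amino acid was represented among the optimal peaks. Each of the 20 had at least 1 gene with such a peak, and between 71.4% and 94.1% of its genes had a region. The median signal of the members by amino acid ran from 29.0 for asparagine to 49.2 for cysteine, all above the 16.6 of regions away from tRNA genes. The lower quartile was also above that value for all 20. Histidine (29.2), tryptophan (29.7) and proline (30.8) followed asparagine at the low end, and arginine (44.9), alanine (44.3), threonine (43.6) and lysine (42.2) stood below cysteine at the high end. Neighbours in this order overlapped widely in their quartiles.

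By gene, alanine had the highest share with an optimal peak, 14 of 34 (41.2%, 26.4 to 57.8), then threonine with 13 of 34 (38.2%), aspartate with 10 of 27 (37.0%), arginine with 16 of 44 (36.4%) and lysine with 16 of 46 (34.8%). The lowest shares were 1 of 14 for phenylalanine (7.14%, 1.27 to 31.5), 2 of 20 for histidine (10%, 2.79 to 30.1), 4 of 27 for glutamine (14.8%) and 3 of 20 for asparagine (15%). The intervals of alanine and histidine overlap, so the order of single amino acids is loose. The 29 genes with an intron, which must be spliced, had an optimal peak in 9 cases (31.0%, 17.3 to 49.2), against 26.6% of the 583 without.

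**Figure D4:**
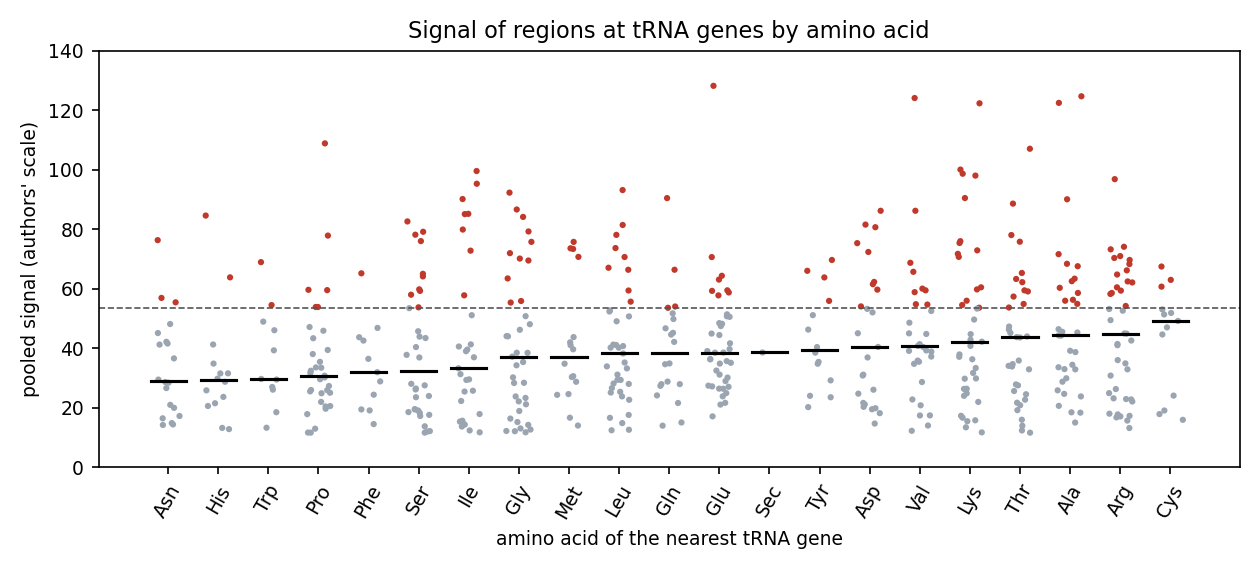
Pooled signal of the members (y axis) by amino acid of the nearest tRNA gene (x axis), with each region as a point. The medians run from 29.0 to 49.2 over the 20 standard amino acids, and the ranges overlap.

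The strongest member of each remaining standard amino acid was also optimal. T03E6.t1, for glutamine, on V, had 90.5 pooled, 36.8 in replicate 1 and 51.6 in replicate 2, although the large glutamine family above had no optimal peak. F41A4.t1 (Asp, IV) had 86.2, with 44.9 and 39.4. Y65A5A.t4 (His, IV) had 84.6, with 43.4 and 40.8. These 3 were among the best 1168 regions of both replicates. E03E2.t1 (Ser, X) had 82.6, with 48.0 and 32.9. F41D9.t3 (Asn, X) had 76.3, with 43.1 and 32.1. C02F12.t1 (Met, X) had 75.7, with 42.0 and 34.6. Each of these 3 ranked higher in replicate 1 than in replicate 2 and was among the best 1168 of both. R11.t1 (Tyr, X) had 69.7, with 33.7 and 33.9, and F12D9.t1 (Cys, X) had 67.5, with 35.9 and 33.4. T28B4.t1 (Phe, X) had 65.2, with 38.0 and 25.2, and fell outside the best 1168 of replicate 2, at rank 1307.

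The tryptophan gene of highest signal was sup-5, known from amber suppressor mutations that make its tRNA read a stop codon. Its region at chrIII:8678325-8678754 had a signal of 68.9, with 33.8 and 32.7 in replicates 1 and 2. The gene for selenocysteine, which is read from a stop codon, is K11H12.t1. It is present as 1 copy, and its region at chrIV:658009-658438 had 38.8, with 16.9 and 20.8, and was not optimal. The sup-5 region was among the best 1168 of both replicates (ranks 935 and 747), and that of K11H12.t1 of neither (ranks 3784 and 1928). The 5 genes annotated as tRNA to which RefSeq gives no amino acid, DY3.t2, C08E8.t3, C28G1.t5, F47E1.t3 and K02D3.t1, had 0 regions.

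The B box was common at the members and rare elsewhere, which is a check of the tRNA annotation. In 200 bp windows around the summits, on both strands, the strict B box string was present in 51.03% of members, 64.4% of optimal members and 1.76% of all nuclear regions. The looser GTTCNANNC, which includes every match of the strict string, was present in 79.2%, 92.6% and 8.73%. A short A box string was present in 8.82% of members and 0.584% of all nuclear regions, and a form longer by 1 base in 0.375% and 0.290%. Mean GC content was 43.1% in member windows and 37.4% in those of other nuclear regions.

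Within the genes, the looser B box was found in 587 of 612 (95.9%), in 96.3% of genes with an optimal peak and in 89.5% of those without a region. Of the 25 genes without it 56.0% had a region (37.1 to 73.3), against 84.0% of the 587 (80.8 to 86.7). A run TTTT within 30 bp after the gene was present for 605 genes (98.9%), and of the 7 without it 2 had a region. A run TTTTT was present for 504 (82.4%), in 78.7% of genes with an optimal peak and 79.0% of those without a region. So genes without a region mostly had both elements.

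The forkhead string GTAAACA was found in 35 member windows (6.57%, 4.76 to 8.996), in 7 optimal ones (4.70%, 2.29 to 9.38) and in 2.21% of all nuclear regions. Its reversed letters ACAAATG, counted as a control, were found in 3.94% of members and 4.32% of all nuclear regions. In 19 of the 35 windows GTAAACA lay inside a tRNA gene. It was found in 22 tRNA genes, all for threonine, from base 34 of the gene counted from its 5′ end, in the stretch that holds the anticodon. Of these 22 genes 21 had a region and 8 an optimal peak (36.4%, 19.7 to 57.0), against 26.4% (23.0 to 30.1) of the 590 others. The other 16 windows made up 3.002% of the members. The 30 bases around the string in the strongest of these genes, W09G10.t3, at chrII:3519106-3519135 on the - strand, carry it in capitals.
W09G10.t3 (Thr): gcgtctgtctaGTAAACAgaaggtcgctgg

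Each replicate alone gave the members a high place. In replicate 1, 142 of 509 members (27.9%, 24.2 to 31.9) were among its best 1168 regions, against 5.3% of its nuclear regions. In replicate 2, 121 of 480 were (25.2%, 21.5 to 29.3), against 5.56%. Median signals were 21.7 for members and 10.6 for other regions in replicate 1, and 18.7 and 10.3 in replicate 2. The median member stood at percentile 89.7 in the first and 88.2 in the second. Of the 533 pooled members 466 overlapped a region of both lists, 42 of replicate 1 only, 19 of replicate 2 only and 6 of neither. These overlaps are not given here for all nuclear regions, so they are no trait of the members.

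All 149 optimal members overlapped a region in both replicate lists, as did 995 of the 996 other optimal nuclear peaks, but the members' ranks there differed. When each was matched to the overlapping region of highest signal, 80 were among the best 1168 of both replicates, 41 of replicate 1 only, 24 of replicate 2 only and 4 of neither. When each was matched to the region of nearest summit, a choice added after the data were seen, 77 were among the best of both. The same split is not given here for the other optimal peaks, so it cannot be called low or high for such peaks. Spearman's rho between the replicates' signals was 0.55 over the 466 members in both lists, and 0.42 by nearest summit. Over the 149 optimal members it was 0.18, and over the 995 other optimal peaks matched in both lists it was 0.56. The optimal members cover a narrower range of signal (quartiles 59.4 and 77.9, against 62.7 and 102). In both groups the points share libraries and a lower limit on the pooled signal. What the difference in rho comes from was not tested. All 27 members outside the optimal list that ranked among the best of both replicates shared their matched region in replicate 1 with an optimal member next to them.

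The members with the largest difference in rank were weak in 1 list. ZC449.t1 (His, X), with 28.7 pooled, had 7.59 (rank 21038) in replicate 1 and 22.5 (rank 1647) in replicate 2. F15A8.t2 (Glu, X), with 34.8 pooled, had 25.5 (rank 1632) in replicate 1 and 7.45 (rank 20513) in replicate 2. B0513.t1 (His, IV), with 23.6 pooled, had 7.54 (rank 21261) and 17.8 (rank 2708). Either replicate could be the low one, and 0 of these 3 were optimal.

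**Figure D5:**
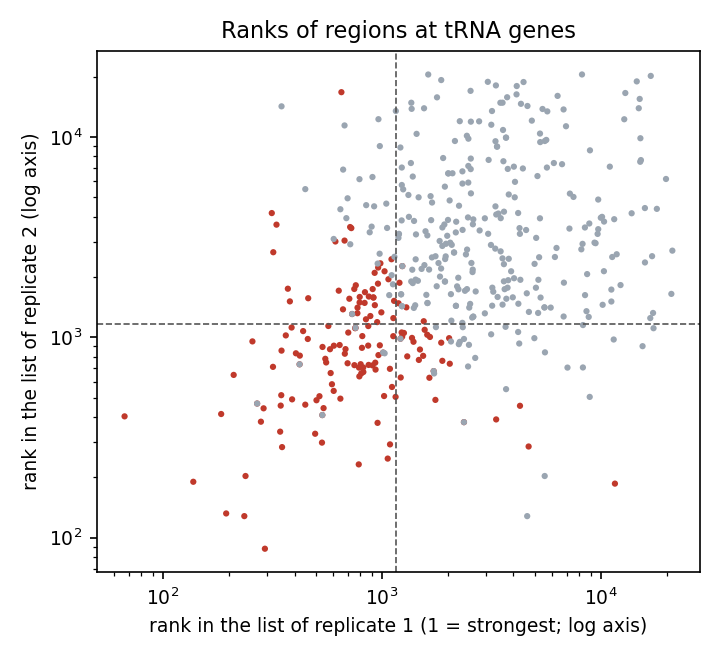
Rank of each member in replicate 1 (x axis, log) and in replicate 2 (y axis, log), matched by nearest summit, with rank 1 as the strongest. Dashed lines mark rank 1168, and 77 optimal members lie below both lines while others lie below only 1.

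The protein-coding genes of polymerase III and tRNA processing were read from a list of 21, of which 20 were annotated and 13 had a region in their promoter window; of all 19973 protein-coding genes 36.4% had a region there. Optimal peaks were present at 3. One was at rpac-19, a subunit that polymerases I and III share (chrIII:9629790-9630219; 104 pooled, 45.1 and 57.4 in the replicates). The others were at rtcb-1, the ligase that joins tRNA exons (71.3, with 46.6 and 22.0), and pus-1, a pseudouridine synthase (61.7, with 28.9 and 33.7). The gene for the second largest polymerase III subunit, rpc-2, had 46.1, with 20.1 and 25.9, and was not optimal. Of all 7272 protein-coding genes with a promoter region 1056 (14.5%) had an optimal peak. With only 13 genes, the 3 are too few to call their share higher or lower than this.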

How the data were processed

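The labels name 1 group of 2 biological replicates. Per the file headers and labels, the authors deposited candidate region lists for each replicate and for the pool, and an optimal peak list. For the read alignment, peak calling and the threshold on reproducibility, tools and settings were "not given in the sources used here". Each region's signal is the authors' deposited signal value, on an unstated scale, and the deposited summit is an offset from the region's start. Only the ce11 lists were used; the ce10 lists were not used here. Columns without a sample or pool numbered 0.

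Summits were set against the Ensembl 115 annotation of WBcel235, with amino acids from RefSeq product names for 607 of 612 genes. The annotations used here give no anticodons, so genes were not grouped by anticodon. A gene took the highest signal of the regions within 200 bp. Identity of genes means identical annotated sequence. A member was matched to the replicate region of highest signal that overlapped it by 1 bp or more. The best 1168 regions of a replicate list, as many as optimal entries, stand for its optimal peaks. No test was made, since there is no second condition and regions are not replicates; intervals are 95% Wilson intervals. Strings of letters were counted in 200 bp windows.

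The members and lists were chosen with earlier results of these data known. Named genes were the 15 strongest members, the strongest of each amino acid, the 5 weakest optimal members, the 3 on either side of 200 bp, the largest clusters and families (3 each, with ties) and the 3 members of largest rank difference. Alternatives were distances of 100 and 500 bp, cluster gaps of 500 and 5000 bp, and each replicate alone. Further ones were the 584 strongest optimal peaks, no members in promoter windows, every gene in reach, and 1 entry per distinct region. Added after the data were seen were genes of unique sequence only and the shares of X and autosomal peaks that are members. Families over regions inside a gene with no other in reach were also added then. The counting was tested on simulated data. Python 3.11.15, numpy 2.4.6, pandas 2.3.3, scipy 1.17.1 and matplotlib 3.10.9 were used.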

Additional observations from a re-analysis of the deposited data

How the results depend on the processing

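Of 96 recomputed values, 58 were labelled as unchanged and 38 as moved. For shares the label followed the Wilson interval of the value reported. Member counts and medians had no such interval. Member counts of 402 to 578, against 533, were all labelled as unchanged. The median signals at 100 and 500 bp were labelled as moved, though they lay between the members' quartiles of 24.7 and 55.4. The 58 is therefore no measure of stability. The cause of a move was not tested beyond what each choice does by construction. Without 1 replicate, the median signal of the members was 18.7 to 21.7, on the scale of a single list. The 2 replicates' values together were 1.01 times the pooled value at the median, matched by nearest summit. The median member stood at percentile 88.2 to 89.7 in the single lists, against 90.6 in the pool. Without 1 replicate, genes with a region were 75.8% to 79.7%, genes with an optimal peak 22.1% to 25.7%, and single genes with one 23.7% to 27.7%. Autosomal genes with one were 18.2% to 24.1%, autosomal peaks that were members 5.24% to 6.97%, and the median offset 35 bp. At 100 bp the median signal was 41.0, genes with a region 77.3% and the offset 31 bp; at 500 bp they were 35.4, 88.2% and 38.5 bp. Counting every gene in reach gave an offset of 33 bp. With the 584 strongest peaks, 8.44% of members and 8.66% of genes were called, 9.32% of clustered, 8.24% of single, 9.78% of X and 7.74% of autosomal genes, and members were 88.5% of X and 4.10% of autosomal peaks. Leaving out members in promoter windows gave 63.4% of genes with a region, 20.3% with an optimal peak, 16.5% of clustered, 22.6% of single, 24.6% of X and 16.7% of autosomal genes, an offset of 33.5 bp, and 64.9% of X and 5.04% of autosomal peaks. Genes of unique sequence alone gave 65.7% with a region and 17.5% with an optimal peak, 15.8% on X and 18.6% on autosomes. No paired analysis was possible because there is only 1 group. With no read counts, the precision of a single region's signal is unknown, and the scales of the replicates are not stated to be comparable.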

Other observations

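RefSeq also annotates 209 tRNA pseudogenes, which were looked at after the data were seen. A candidate region lay within 200 bp of 22 of them (10.5%, 95% Wilson interval 7.05 to 15.4), against 82.8% of the 612 tRNA genes, and their 24 regions had a median signal of 19.9. Optimal peaks lay at 3 pseudogenes, D1046.t1 on IV (115.9), T08B2.t1 on I (81.3) and F19H8.t1 on II (67.0). Of the 24 regions 3 were thus optimal, against 149 of the 533 members and 5.19% of all nuclear regions. The regions of the pseudogenes and those of the tRNA genes had 0 in common.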
